A study of Homo sapiens with 2 samples.

Results

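The kinesin superfamily was described in 2 RNA-seq libraries of HEK293T cells. Members were the genes whose symbols consist of KIF or KIFC, a number and at most 1 letter from A to C. This rule took 42 genes of the 60664 in the deposited tables, all of them protein-coding. HEK293T is an established human line from embryonic kidney cells, transformed with adenovirus DNA and made to express the large T antigen of SV40. Both libraries were labelled wild type and untreated, and they form 1 group with no contrast. For replicate 2 the cell line is spelled HEK294T in the source and cell line labels and HEK293T in the title, and the title was followed. Whether each library had a culture of its own is not stated, and the spread may be technical. Values after ± are the SD over both libraries (n = 2).

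Kinesins are motors that bind microtubules and use ATP to walk along them, to slide them or to shorten their ends. One set acts in cell division, where its members build the spindle, move chromosomes and complete cytokinesis, and many of these genes are transcribed mainly in late cell cycle phases. Another set carries vesicles, organelles and RNA through the cytoplasm, and several of its members are best known from neurons. A few further members work at cilia and centrioles. By these textbook roles 14 members were counted as mitotic, 17 as transport and 6 as cilium or centriole kinesins, and 5 had a mixed or less settled role.

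Many genes of late cell cycle phases share a promoter layout, in which a CCAAT box lies upstream of a cell cycle genes homology region (CHR). The promoters were therefore searched on both strands for the CCAAT letters, which appear as ATTGG when they lie on the opposite strand. A second search took the letters TTTGAA as the CHR, which appear as TTCAAA when they lie on the opposite strand. A variant of the CHR that was searched as well, the letters TTCGAA, is the same on both strands. The end of CCAAT and the start of TTTGAA can share a T. The window ran from 250 bases before to 50 bases after each RefSeq start on GRCh38.p14, and 34 of the 42 members had one. The stretches below show the closest pairs, with both matches in capitals.
KIF23, chr15:69414285-69414299, plus strand: ATTGGcccgTTTGAA
KIF14, chr1:200620745-200620773, minus strand: CCAATcagaaggcggggcgcccaTTCAAA
KIF4A, chrX:70290046-70290075, plus strand: ATTGGttggcgtctccgggacggaTTTGAA
KIF4B, chr5:155013734-155013763, plus strand: ATTGGttggtgtctctgggagggaTTTGAA

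CHR letters were present in 11 of 14 mitotic kinesin genes and in 1 of 12 transport kinesin genes with a promoter in the table. Over all 35116 promoters of this length the share was 16.4%, and among the 15301 protein-coding genes with a promoter it was 17.5%. The CCAAT letters were present in 11 of 14 mitotic and 4 of 12 transport genes, against 34.6% of all promoters and 42.5% of protein-coding genes. Both matches were held by 10 mitotic genes, 1 transport gene and KIF24 of the centriole, against 6.38% of all promoters and 7.37% of protein-coding genes. A match is a description of the letters and not a measured binding site.

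The order of the pair was the same in the mitotic genes. In all 10 genes with both matches the nearest CCAAT letters lay upstream of the CHR letters. How many of the 1128 protein-coding genes with both matches hold this order was not determined. The order is therefore not shown to be particular to mitotic kinesins. The gap between them was 4 bases in KIF23, 18 in KIF14, 19 in KIF4A and KIF4B, 20 in KIF11, 29 in KIF18B, 30 in KIF18A, 34 in KIF22, 45 in KIFC1 and 117 in KIF20B. In these pairs the first base of the CHR letters lay between positions -55 and 25 from the start. KIF24 had the same order, with a gap of 43 bases. KIF4B, an intronless copy of KIF4A, differed from it at 3 of the 30 bases of the printed stretch, so these genes are not separate cases. KIF15 had CHR letters but no CCAAT, KIF20A had CCAAT letters at 2 places but no CHR letters, and KIF2C and KIF2B had neither.

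Longer stretches of 150 bases before the start show the layout in a pair of mitotic genes and its absence in the transport genes KIF5B and KIF1C.
KIF4A, chrX:70289954-70290103, plus strand: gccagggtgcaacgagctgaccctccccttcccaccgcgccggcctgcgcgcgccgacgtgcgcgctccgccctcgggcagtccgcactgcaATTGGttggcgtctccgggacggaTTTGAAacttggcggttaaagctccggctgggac
KIF18A, chr11:28108157-28108306, minus strand: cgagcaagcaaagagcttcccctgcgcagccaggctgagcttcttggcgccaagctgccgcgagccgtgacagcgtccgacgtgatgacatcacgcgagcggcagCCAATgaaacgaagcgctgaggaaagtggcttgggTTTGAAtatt
KIF5B, chr10:32056426-32056575, minus strand: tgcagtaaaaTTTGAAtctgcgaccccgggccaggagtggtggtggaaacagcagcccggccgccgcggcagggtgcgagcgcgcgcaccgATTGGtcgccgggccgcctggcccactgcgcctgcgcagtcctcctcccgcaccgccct
KIF1C, chr17:4997800-4997949, plus strand: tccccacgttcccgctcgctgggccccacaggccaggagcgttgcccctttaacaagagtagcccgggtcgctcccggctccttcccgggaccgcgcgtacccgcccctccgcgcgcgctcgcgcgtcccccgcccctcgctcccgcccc
KIF5B, the transport gene with CHR letters, held them at position -140 and upstream of its CCAAT letters, the reverse of the order in the mitotic genes. KIF1C held neither.

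**Figure D1:**
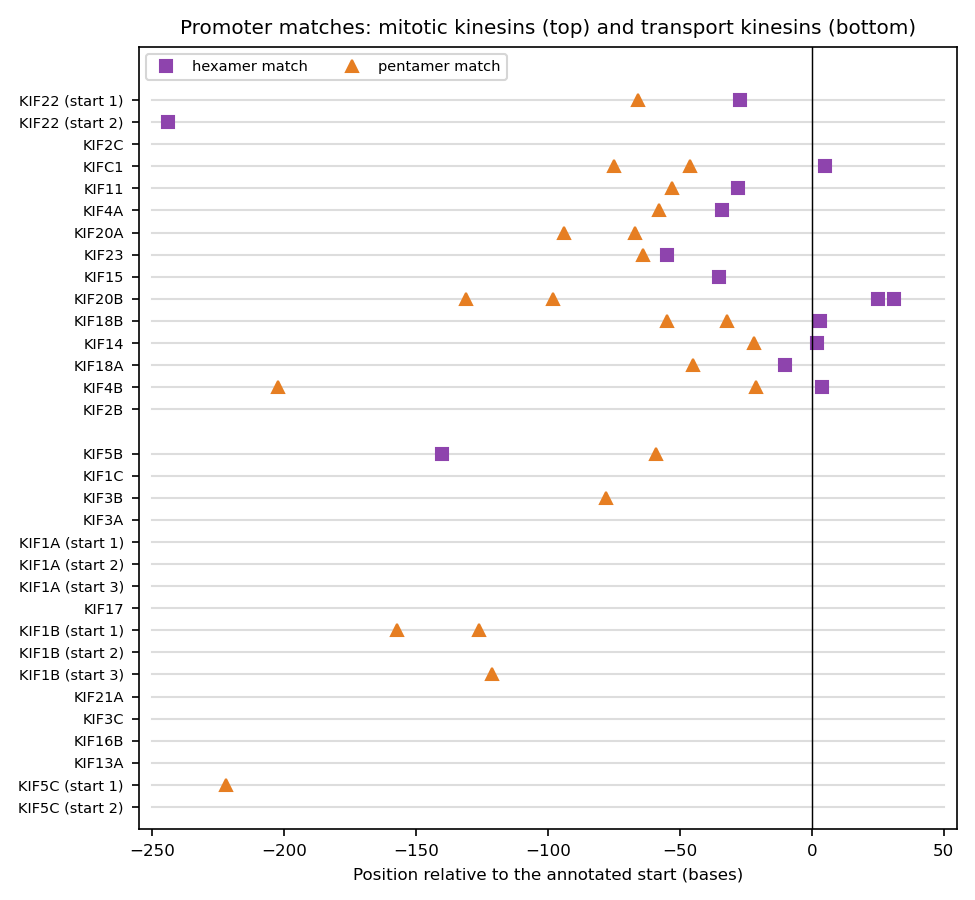
Positions of the CHR letters (hexamer, squares) and the CCAAT letters (pentamer, triangles) relative to the annotated start, in bases, for 14 mitotic and 12 transport kinesin genes, 1 line per annotated start and ordered by transcript level within each set. In 10 mitotic genes a triangle lies to the left of a square, and among these transport genes KIF5B alone holds a square.

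Replicate 1 held 18011638 assigned counts and replicate 2 held 18575058. The 42 kinesin genes took 24694 and 24438 of them, which is 0.137% and 0.132%. Of the 42 members, 39 reached 1 CPM (counts scaled to the library total) in both libraries, against 65.9% of the 19890 protein-coding genes. KIF2B, KIF4B and KIF19 did not. Levels between genes were compared as TPM, which corrects the counts for exon length and scales them to a common total. All members together had a median of 4.83 TPM (4.74 and 4.87 in the libraries), and protein-coding genes one of 2.88 TPM. The biological coefficient of variation that edgeR estimated at the members' levels ran from 11.6% to 20.6%, from 1 residual degree of freedom.

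Mitotic kinesins stood above transport kinesins in both libraries. Their median was 18.8 TPM in replicate 1 and 15.8 in replicate 2, against 3.49 and 3.11 TPM for the transport set. On the scale of log2(TPM + 0.1) the difference between the medians was 2.31 ± 0.0481. Its size depends on the length correction, as the median deposited length was 4545 bases for mitotic and 9600 for transport members. With CPM, which has no length correction, the difference was 1.58 log2. Of the mitotic members 12 of 14 reached 5 TPM on average and of the transport members 5 of 17, against 41.9% of protein-coding genes. The mitotic set held 67.6% ± 1.35 of the summed kinesin TPM and the transport set 23.4% ± 1.43. The cilium and centriole set held 5.96% ± 0.296 and the 5 members of mixed role 3.08% ± 0.209. Of the mitotic genes 12 had 7.78 TPM or more, and the single-exon genes KIF4B and KIF2B were near 0, while the transport genes ran from 0.492 to 39.2 TPM. In bulk RNA fewer cells of a type, such as dividing cells, and less RNA per cell cannot be told apart. No test was made over the genes, which are not replicates.

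**Figure D2:**
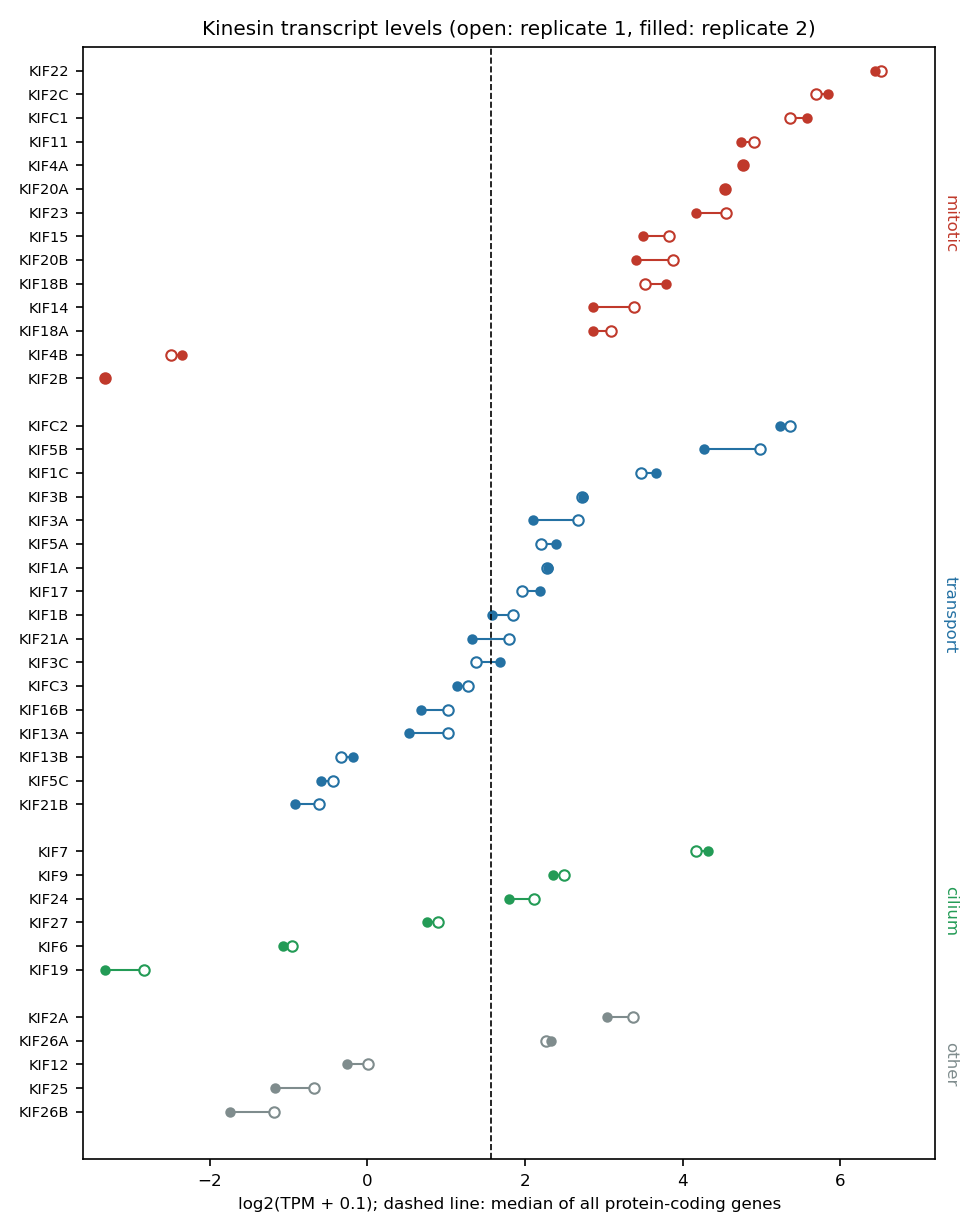
Transcript level of each of the 42 kinesins as log2(TPM + 0.1) in replicate 1 (open circles) and replicate 2 (filled circles), by role, with the protein-coding median of 2.88 TPM as a dashed line. Of the 14 mitotic members 12 lie to the right of the line in both libraries, and the transport members lie on both sides of it.

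Chromosome and spindle motors were the most abundant members. KIF22, a DNA-binding kinesin that pushes chromosome arms away from the spindle poles, led the superfamily at chromosome 16 from 29790719 to 29805384. It had 3439 counts in replicate 1 and 3519 in replicate 2, or 91.5 and 86.9 TPM. An antisense gene, ENSG00000275857, lies wholly inside its exons and had 1347 and 1121 counts, so part of the KIF22 signal may belong to the other strand. With those counts taken off, KIF22 had 55.6 and 59.2 TPM. These values lay above those of KIF2C in each library, but the ranges of the 2 genes over both libraries overlapped.

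KIF2C, which shortens microtubule ends and corrects faulty kinetochore attachments, followed at chromosome 1 from 44739818 to 44767767. It had 1633 and 1963 counts, or 51.3 and 57.3 TPM. It shares 175 exonic bases with ENSG00000225721 on the opposite strand, which had 35319 and 39305 counts, so its level is uncertain too. KIFC1, a minus-end motor that focuses spindle poles and gathers extra centrosomes, had 1081 and 1352 counts, or 40.9 and 47.5 TPM. KIF2C lay above KIFC1 in each library, and both were higher in replicate 2. KIF11, the motor that slides antiparallel microtubules apart to make the spindle bipolar, had 1385 and 1329 counts, or 29.8 and 26.6 TPM. KIF15, which can take over part of the work of KIF11, had 14.1 and 11.1 TPM. KIF11 was thus above KIF15 in each library.

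The mitotic kinesin-8 genes KIF18A and KIF18B, which regulate microtubule length, were below KIF11 in both libraries. KIF18A, which dampens chromosome movements at the metaphase plate, had 331 and 304 counts, or 8.40 and 7.16 TPM. KIF18B, which acts at the ends of astral microtubules, had 468 and 606 counts, or 11.4 and 13.7 TPM. KIF18B exceeded KIF18A 1.35-fold in replicate 1 and 1.91-fold in replicate 2.

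Among the genes of the spindle midzone and cytokinesis, KIF4A, KIF20A and KIF23 were above KIF20B and KIF14 in both libraries. KIF4A, a chromosome-bound motor that limits the growth of midzone microtubules, had 27.1 and 27.2 TPM from 1081 and 1167 counts. KIF20A, which brings Aurora B to the midzone, had 23.1 and 23.0 TPM from 777 and 834 counts. KIF23, the motor of the centralspindlin complex, had 23.4 and 17.9 TPM from 1342 and 1106 counts. KIF23 therefore lay above KIF20A in replicate 1 and below it in replicate 2, and their order is not settled by these libraries. KIF20B had 14.5 and 10.5 TPM, and KIF14, which acts with citron kinase late in cytokinesis, had 10.3 and 7.15 TPM. Both were lower in replicate 2.

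KIF4B and KIF2B were at or near 0. KIF4B, at chromosome 5 from 155013755 to 155018141, had 3 and 4 counts, or 0.167 and 0.215 CPM with exact 95% binomial intervals of 0.0343 to 0.487 and 0.0587 to 0.551. Reads of KIF4A could align to this near-identical copy, so even these counts are uncertain. KIF2B, a relative of KIF2C, had 0 counts in both libraries. A floor of 3 counts, the limit used for a count of 0, is 0.167 CPM in replicate 1 and 0.162 in replicate 2, and the exact 95% binomial upper bounds are 0.205 and 0.199 CPM. Such limits reflect counting error alone. The promoter of KIF4B holds the same pair of matches as that of KIF4A, in the stretches printed above.

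Among the transport kinesins 3 genes stood above the rest. KIFC2, a kinesin-14 motor described in neurons, had 1584 and 1567 counts, or 40.8 and 37.5 TPM. It shares 17.8% of its exonic bases with FOXH1 on the opposite strand, which had 548 and 324 counts, so its level is uncertain. KIF5B, the broadly expressed heavy chain of conventional kinesin, had 1606 and 1059 counts, or 31.4 and 19.2 TPM. KIF1C, a kinesin-3 motor that carries vesicles between the Golgi and the cell periphery, had 826 and 1010 counts, or 11.8 ± 1.06 TPM. KIF5B lay above KIF1C in both libraries and below KIFC2 in both.

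The 3 conventional kinesin genes differed widely in level. KIF5A, known from neurons, had 4.50 and 5.14 TPM and KIF5C, also known from neurons, 0.640 and 0.565 TPM. KIF5B exceeded KIF5A 6.97-fold in replicate 1 and 3.74-fold in replicate 2, and it held 85.9% and 77.1% of the summed kinesin-1 TPM. For KIF5C the deposited length is 33151 bases and the longest coding transcript 6931. With transcript lengths KIF5C had 1.97 ± 0.162 TPM, KIF5A 6.93 ± 0.682 and KIF5B 17.2 ± 5.78, so the order of the 3 genes did not change.

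The heterotrimeric kinesin-2 genes were closer to one another. KIF3A, the common subunit, had 375 and 271 counts, or 6.27 and 4.21 TPM. KIF3B, its usual partner in intraflagellar transport, had 348 and 376 counts, or 6.52 and 6.54 TPM, and KIF3C, the alternative partner, had 2.49 and 3.11 TPM. KIF3B exceeded KIF3C 2.62-fold in replicate 1 and 2.10-fold in replicate 2. KIF17, a homodimeric kinesin-2 of cilia and dendrites, had 3.80 and 4.48 TPM. KIFAP3, which encodes the accessory subunit that joins KIF3A and KIF3B, had 8.91 and 8.28 TPM from 387 counts in each library.

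Of the remaining transport kinesins KIF1A and KIF1B were above the protein-coding median in both libraries on the deposited counts. KIFC3, KIF16B, KIF13A, KIF13B and KIF21B were below it. KIF1A, the carrier of synaptic vesicle precursors, had 743 and 807 counts, or 4.76 and 4.80 TPM (41.3 and 43.4 CPM). KIF1B, which moves mitochondria and vesicles, had 3.49 and 2.89 TPM. RN7SL731P lies wholly inside the exons of KIF1B and had 29 and 33 counts. With those counts taken off KIF1B had 3.30 and 2.69 TPM. KIF21A and KIF21B, which restrain microtubule growth, had 2.89 ± 0.684 and 0.492 ± 0.09 TPM. The minus-end motor KIFC3 had 2.22 ± 0.157 TPM. KIF16B, a carrier of early endosomes, had 1.72 ± 0.312, KIF13A 1.64 ± 0.408 and KIF13B 0.738 ± 0.0667 TPM. ENSG00000259607, on the opposite strand, lies wholly inside the exons of KIF13B and had 22 and 33 counts against 67 and 82 for KIF13B. With those counts taken off KIF13B had 0.467 ± 0.00363 TPM. These transport kinesins all passed 1 CPM in both libraries, on the deposited counts.

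Among the cilium and centriole kinesins KIF7 was highest and KIF19 lowest. KIF7, a regulator of Hedgehog signalling at the tip of the primary cilium, had 824 and 986 counts, or 17.9 and 19.9 TPM. KIF24, a centriolar kinesin that holds back cilium assembly, had 4.23 and 3.37 TPM, and KIF27, a relative of KIF7, had 1.76 and 1.60 TPM. KIF7 shares 11.1% of its exonic bases with TICRR on the opposite strand, which had 758 and 770 counts.

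The kinesins of motile cilia differed among themselves. KIF9 had 283 and 278 counts, or 5.52 and 5.03 TPM, above KIF24 in both libraries, but other genes cover 17.8% of its exonic bases. KIF6 had 43 and 42 counts, or 0.415 and 0.377 TPM. KIF19, which trims motile cilia, had 2 and 0 counts. Of 4 markers of multiciliated cells 1 passed 1 CPM in both libraries, CCDC39 with 267 and 207 counts, and 39.3% of its exonic bases are shared with other genes. FOXJ1 had 8 and 6 counts, RSPH1 9 and 10 and DNAI1 1 and 11.

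Of the 5 members with a mixed or less settled role, KIF2A and KIF26A were above the protein-coding median. KIF2A, a microtubule depolymerase used both at spindle poles and in neurons, had 1168 and 1000 counts, or 10.3 and 8.16 TPM. It shares 21.3% of its exonic bases, the highest share among the members, mostly with DIMT1 on the opposite strand. KIF26A, an atypical kinesin without motility, had 4.72 and 4.94 TPM, and its relative KIF26B 0.342 and 0.200 TPM. KIF12 had 24 and 21 counts and KIF25 had 27 and 19. KIF26B, KIF12 and KIF25 thus passed 1 CPM only narrowly in replicate 2, with lower 95% bounds of 0.958, 0.700 and 0.616 CPM.

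The order of the members depended in part on the length used. For 5 members the deposited length, which merges all annotated exons, was over 2 times the length of the longest coding transcript in GENCODE 29. KIF2A changed most in rank, from 15 with the deposited length of 13050 bases to 6 with a transcript of 3360 bases, at 24.4 ± 3.82 TPM. KIF22, KIF2C, KIFC1 and KIFC2 were ranked 1 to 4 with either length. Without length correction KIF22 had 190.2 ± 1.05 CPM, KIF2C 98.2 ± 10.6, KIFC2 86.2 ± 2.53 and KIF11 74.2 ± 3.78.

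**Figure D3:**
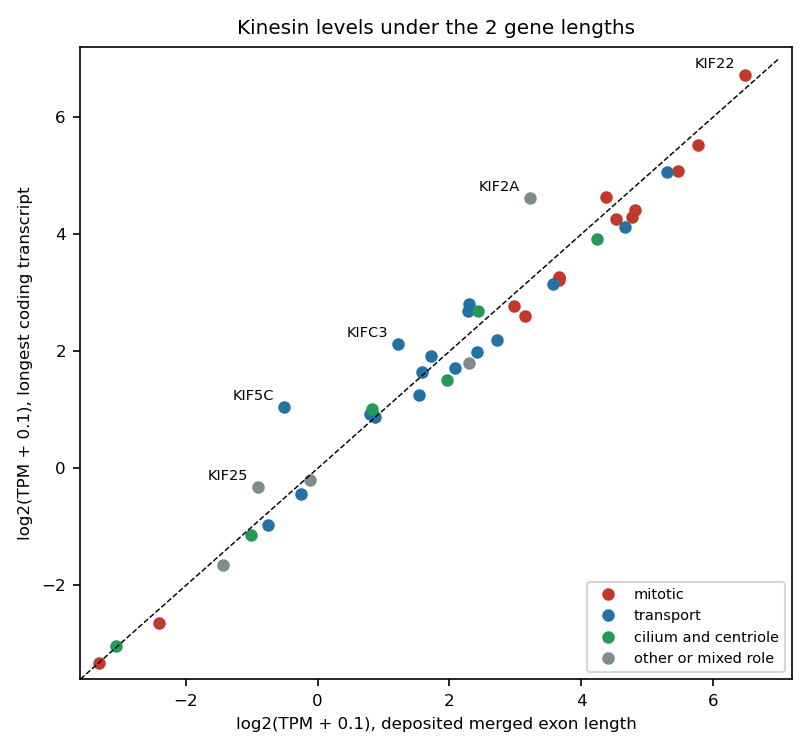
Mean level of each kinesin as log2(TPM + 0.1) with the deposited merged exon length (horizontal) and with the longest coding transcript (vertical), and the line of equality. KIF2A, KIF5C, KIFC3 and KIF25 lie farthest above the line, and KIF22 is highest on both axes.

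Between the libraries the 35 kinesins with enough counts differed by less than 2-fold. Ratios were log2 of replicate 2 over replicate 1 with TMM scaling, over the 35 members with a mean count of 50 or more. None of the 35 reached 1 log2 in either direction, against 1.92% of 14704 genes that were lower and 0.143% that were higher by that much. With shares this small, a count of 0 among 35 members is not shown to be particular to kinesins. KIF5B, with a log2 ratio of -0.61, was the member past 0.5 log2, against 8.84% of genes lower and 2.86% higher by that size. KIF3A (-0.48), KIF14 (-0.44) and KIF13A (-0.42) followed among the lower members, and KIF3C (0.41), KIF18B (0.36) and KIF17 (0.33) were the highest. The medians of the mitotic (-0.03) and transport (-0.05) sets were both near 0. Each side is a single library, so no test was possible.

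The ratios moved with the GC content of the transcript. All 12 members under 45% GC were lower in replicate 2, and 8 of the 11 above 55% were higher. Across the 35 members Pearson's r between ratio and GC content was 0.65 and Spearman's rho 0.68, and over 14547 genes they were 0.39 and 0.43. These are descriptions across genes of the same 2 libraries, which are not independent points. After the ratios were centred on GC content the median size of the members' ratios went from 0.25 to 0.17 log2, and KIF5B had -0.39. The part of GC content in the level of any member was not tested.

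**Figure D4:**
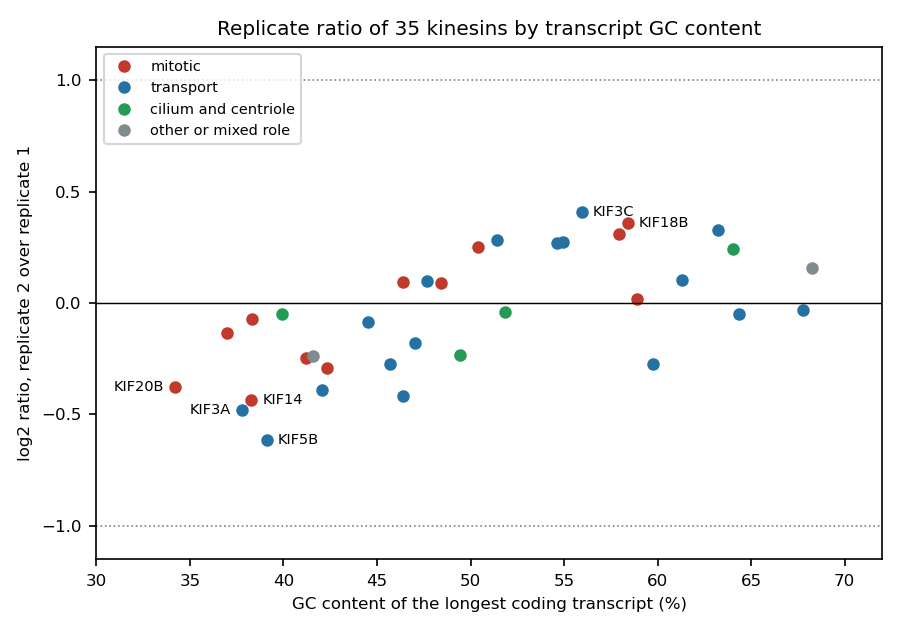
Log2 ratio of replicate 2 over replicate 1 (vertical) by GC content of the longest coding transcript in percent (horizontal), for the 35 kinesins with a mean count of 50 or more, coloured by role. Dotted lines mark 1 log2, which no member reaches, and all 12 members under 45% GC lie below 0. The share of all genes under 45% GC that lie below 0 was not determined.

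Partner genes of the mitotic kinesins were detected throughout, 13 of 13, against 65.9% of all protein-coding genes. Their median was 42.9 TPM. BIRC5 (134 ± 3.45 TPM) and AURKB (95.4 ± 2.38), both of the chromosomal passenger complex, were highest and INCENP (7.19 ± 0.99), of the same complex, was lowest. CENPE, the kinetochore motor of the kinesin-7 family, falls outside the symbol rule and was counted among these 13 partners, although it is itself a kinesin. It had 1138 and 946 counts, or 13.1 and 10.1 TPM. It lay between KIF14 and KIF23 in both libraries. Chosen after their values were seen, RACGAP1, which binds KIF23 in centralspindlin, had 31.1 ± 0.395 TPM and PRC1, which recruits KIF4A to the midzone, had 94.9 and 85.0 TPM. Each exceeded its kinesin in both libraries, but other genes cover 61.9% of the exonic bases of PRC1, whose level is uncertain.

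Partner genes of the transport kinesins were detected as well, against the same 65.9% of all protein-coding genes. The 4 kinesin light chains, KIFAP3 and KIFBP were all detected and ran from KIFAP3 (8.59 ± 0.45) and KLC1 (12.7 ± 0.661) to KLC2 (15.3 ± 1.6) and KLC4 (16.2 ± 1.55). Other genes cover 40.6% of the exonic bases of KLC1. The 12 cargo adaptors were detected too, with medians of 10.3 and 9.49 TPM in the libraries, led by RHOT2 (56.7 ± 5.19), a mitochondrial GTPase that links kinesin-1 to its cargo. TRAK2 (2.91 ± 0.204) and HAP1 (2.52 ± 0.232) were lowest. Dynein and dynactin genes, which serve minus-end transport, had a median of 23.4 TPM, from DYNC1I1 (0.973 ± 0.256) and DYNC1H1 (5.14 ± 0.0478) to DYNLT1 (122 ± 8.32) and DYNLL1 (319 ± 31.6). Adaptor and dynein medians lay above the transport kinesin median of 3.19 TPM, and the mitotic partner median lay above the mitotic kinesin median of 16.6 TPM. None of these differences was tested.

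**Figure D5:**
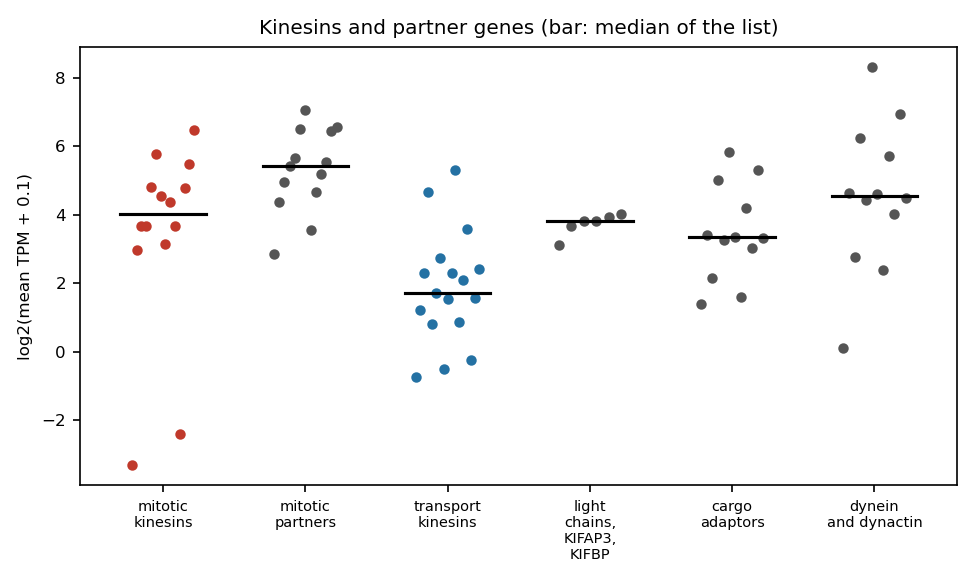
Mean level as log2(TPM + 0.1) of each gene in the mitotic and transport kinesin sets and in 4 lists of partner genes, with the median of each list as a bar. The bar of the mitotic kinesins (16.6 TPM) lies below that of their partners (42.9 TPM), which include the kinesin-7 motor CENPE. That of the transport kinesins (3.19 TPM) is the lowest of the 6.

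Proliferation genes were abundant in both libraries, with CCNB1 at 184 and 176 TPM, TOP2A at 75.0 and 62.5 and MKI67 at 14.1 and 13.1. The neuronal genes UCHL1, INA, NEFM and NEFL were detected, at 334 ± 5.81, 28.3 ± 1.07, 20.3 ± 1.71 and 15.7 ± 2.96 TPM. Epithelial KRT8 (21.4 ± 1.69 TPM) and KRT18 (24.8 ± 2.13) were present and CDH1 was low (0.674 ± 0.061). Markers of endothelial cells and fibroblasts had at most 3 counts in a library. Of the blood markers given here CD3D was at 0, PTPRC had 0 and 1 counts and HBB had 0 and 38. The part of these markers in the kinesin levels was not tested.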

How the data were processed

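RNA was primed with oligo(dT) and the cDNA was sheared and ligated as single strands, per the labels' protocols. The deposited values are raw counts per Ensembl gene. The submitters' processing notes name GRCh38, bcl2fastq 2.17, Trim Galore 0.6.7 and featureCounts 2.0.3. Aligner, annotation release and strand setting: not given in the sources used here, and genes that share exons or lie antisense are uncertain. Symbols matched 60463 of 60664 IDs. CPM, TPM (deposited exon lengths) and exon overlap (bedtools 2.31.1) were computed here. Ratios and spread came from edgeR 4.0.16 in R 4.3.3, with TMM, a prior count of 2 and an intercept alone. Size factors from DESeq2 1.42.0 were tried as well. The TMM ratios and the overall coefficient of variation were tested on simulated counts, which held no GC trend. The DESeq2 size factors, the exon overlap and the GC centring were not tested in this way. Gene types, transcript lengths and GC content came from GENCODE 29 and promoters from RefSeq. The GC centring took off the median ratio in 20 bins. Members, roles and lists were chosen with earlier results of these data known. All members are named, with the 2 highest and 2 lowest genes of each partner list and CENPE, the marker genes and other genes where said. A partner gene and a marker gene that this rule names are not reported here. With 1 group, no test between groups was run.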

Additional observations from a re-analysis of the deposited data

How the results depend on the processing

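The mitotic set stayed above the transport set under all 11 alternatives run. Its median difference of 2.31 log2 became 1.58 with CPM, 1.85 with the longest coding transcript, 2.04 with a pseudocount of 1, 2.74 with detected members alone, 1.95 with KIF2A as mitotic, 2.44 without KIF3A, KIF3B, KIF3C and KIF17, 2.74 without KIF4B and KIF2B, and 2.39 with the counts of genes wholly inside a member's exons taken off, an alternative added after seeing the data. It ranged from 2.29 to 2.36 when either library was left out. No member shares 25% or more of its exonic bases, so that filter changed nothing. The detected members alone and the set without KIF4B and KIF2B hold the same mitotic and transport genes, so they are not separate alternatives. Both remove only mitotic genes near 0 and could not lower the difference. The 39 detected members became 32 at 1 TPM and remained 39 in number at 0.5 CPM, at 10 counts and in either library alone. The shares of protein-coding genes under these other settings were not determined, so these counts have no background beside them. Without a filter on counts 1 member passed 1 log2 between the libraries, KIF19 with 2 and 0 counts, in place of 0. The 1 member past 0.5 log2 became 2 with library totals alone and 0 with GC centring. Over the 35 single ratios, GC centring moved 10 beyond their counting interval and turned the sign of 6, among them KIF20B (-0.38 to 0.07), while DESeq2 size factors moved none. No paired analysis was possible because the labels give 1 group. Depth limits the lowest members: 3 counts correspond to 0.167 CPM in replicate 1 and 0.162 CPM in replicate 2.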

Other observations

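Outside the symbol rule, 15 further genes carry a symbol that starts with KIF, and 7 of them had 0 counts in both libraries. KIF28P, annotated as a transcribed unitary pseudogene and sharing 29.5% of its exonic bases with other genes, had 68 counts in each library. KIF4CP and KIF3AP1, annotated as processed pseudogenes, were at 0. Of the antisense genes named after kinesins, KIF23-AS1 had 81 and 109 counts, KIF9-AS1 69 and 66 and KIF1C-AS1 37 and 57. Other genes cover 21.8%, 12.5% and 14.4% of their exonic bases, so their strand is uncertain.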
